A study of Homo sapiens with 11 samples.

Results

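Genes of mitosis were examined in RNA-seq of xenografts of BT-474, an established cell line from a human breast carcinoma, whose genotype is labelled HR+/Her2+. The 44 mitosis genes were picked by symbol for their known roles in G2 and mitosis, out of 28152 symbols in the count table. No cutoff on a measured value was used, but the list was chosen with earlier results of these data known. The cells had been grown in the mammary fat pad of female athymic nude mice, and every mouse of both groups carried a slow-release estradiol pellet (0.72 mg). The vehicle group (6 tumours) was given mannitol in water, and the evexomostat group (5 tumours) was given evexomostat (SDX-7320), an inhibitor of the enzyme MetAP2, at 12 mpk. Both were dosed under the skin every 4 days, and all tumours were labelled day 33. The labels give no age of the mice and do not say in words that each library came from its own animal, so the p-values below measure the spread between these libraries. In a piece of whole tumour, fewer dividing cells and less mitotic RNA per cell cannot be told apart.

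Dividing cells switch these genes on late in the cell cycle. The transcription factors MYBL2 (B-Myb) and FOXM1, recruited with the MuvB complex, activate them in G2 through a short promoter element called the CHR, often beside CCAAT boxes that bind NF-Y, while in resting cells the DREAM complex represses them through the same element. The proteins then act in order: cyclin B and CDK1 start mitosis, kinases and kinesins build the spindle, the checkpoint holds the chromosomes until all are attached, and CDC20 turns on the anaphase-promoting complex (APC/C), which destroys securin and cyclin B. Many of the transcripts, MKI67 among them, are scarce in resting cells and are read in breast tumours as a measure of proliferation, though some of the 44, such as BUB3, are also expressed outside dividing cells.

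Promoters of 4 genes that the results below turn on are shown, and 3 of them hold the CHR letters. CDC20 and CDCA8 had the smallest p-values of the 44, CCNB1 passed the threshold in some alternative fits, and MKI67 is the marker used in clinical pathology. Each sequence below runs from 250 bases before to 50 bases after the RefSeq start, on the gene's strand, in the build GRCh38.p14. Capitals mark the CHR (TTTGAA, or TTCAAA on the other strand) and the CCAAT box (CCAAT, or ATTGG on the other strand).
CDC20 (chr1:43358731-43359030, plus strand): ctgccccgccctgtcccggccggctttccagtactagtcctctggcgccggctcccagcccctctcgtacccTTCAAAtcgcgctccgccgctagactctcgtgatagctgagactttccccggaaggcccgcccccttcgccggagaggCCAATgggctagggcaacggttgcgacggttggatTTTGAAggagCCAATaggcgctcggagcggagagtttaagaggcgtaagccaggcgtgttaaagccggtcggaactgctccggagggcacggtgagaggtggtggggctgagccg
CDCA8 (chr1:37692266-37692565, plus strand): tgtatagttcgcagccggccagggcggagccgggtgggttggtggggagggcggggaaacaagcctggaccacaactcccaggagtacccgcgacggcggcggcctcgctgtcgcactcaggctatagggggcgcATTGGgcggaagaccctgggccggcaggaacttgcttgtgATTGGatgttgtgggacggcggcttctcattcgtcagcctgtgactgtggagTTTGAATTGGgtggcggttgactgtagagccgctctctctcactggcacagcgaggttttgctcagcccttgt
CCNB1 (chr5:69166900-69167199, plus strand): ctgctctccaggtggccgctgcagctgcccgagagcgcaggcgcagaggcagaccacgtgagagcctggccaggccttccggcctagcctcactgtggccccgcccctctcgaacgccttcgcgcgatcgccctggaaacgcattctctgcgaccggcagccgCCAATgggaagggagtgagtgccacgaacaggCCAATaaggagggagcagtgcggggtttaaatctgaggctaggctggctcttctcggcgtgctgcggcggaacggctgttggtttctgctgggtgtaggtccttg
MKI67 (chr10:128126374-128126673, minus strand): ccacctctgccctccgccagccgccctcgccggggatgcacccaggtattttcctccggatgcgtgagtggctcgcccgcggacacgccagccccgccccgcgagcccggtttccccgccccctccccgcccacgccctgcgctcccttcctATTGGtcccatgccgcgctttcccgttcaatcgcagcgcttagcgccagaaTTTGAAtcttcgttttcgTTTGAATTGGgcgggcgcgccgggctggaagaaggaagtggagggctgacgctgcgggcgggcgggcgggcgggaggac
In CDC20 the CHR letters begin 178 and 65 bases before the start, and the CCAAT boxes begin 100 and 55 bases before it. In CDCA8 a CHR begins 23 bases before the start and shares a base with a CCAAT box at 18, with further CCAAT boxes at 115 and 75. MKI67 has CHR letters at 47 and 29 and CCAAT boxes at 98 and 24, again with a shared base between neighbours. CCNB1 has CCAAT boxes at 87 and 55 and no TTTGAA in this window.

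RefSeq's table held 300-base promoters for 37 of the 44 genes, 49 promoters in all. FOXM1, AURKA, BIRC5, BUB3, TTK, UBE2C and TPX2 were not matched. The CHR letters were found on either strand in 29 of 49 promoters (59.2%, 26 genes), against 15.2% of all 35093 promoters of the table. CCAAT was in 36 of 49 (73.5%, 31 genes) against 34.6%, and both together in 24 of 49 (49.0%, 22 genes) against 5.90%. The variant TTCGAA was in 3 of 49 (6.12%) against 1.45%, and the E2F core GCGGGAA in 5 of 49 (10.2%) against 6.55%. A letter match describes the sequence and is not evidence of binding.

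No mitosis gene differed between evexomostat and vehicle tumours past the threshold of the edgeR test on all 11 libraries. With edgeR's quasi-likelihood test and Benjamini-Hochberg adjustment over 16653 tested genes, 0 of 44 had an adjusted p under 0.05, where 0.606% of all tested genes did. An unadjusted p under 0.05 was reached by 2 of 44 (4.55%), CDC20 and CDCA8, against 13.4% of all tested genes. DESeq2 also called 0 of 44, against 3.62% of the genes it tested. Of the limma-voom fits, the one without sample quality weights called 0 of 44 against 0.534% of all tested genes, and the one with weights called 3 (6.82%), described below, against 6.36%. In no gene were the groups separate in CPM (reads per library total, scaled by TMM factors), which was so for 2.97% of tested genes. The authors' deposited table called 0 of 44 as well, against 0.952% of its genes.

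The estimates were small, and how many of them lay above 0 depended on single libraries. The log2 fold change of evexomostat over vehicle was above 0 for 30 of 44 genes (68.2%), against 44.6% of all tested genes, with a median of 0.07 against -0.04. Without evexomostat 002 it was above 0 for 22 of 44 genes, with a median of -0.00449, and without vehicle 006 for 24 of 44, with a median of 0.00392. Without evexomostat 003 it was above 0 for 35 of 44, with a median of 0.15. Of all tested genes in these fits, 44.2%, 44.8% and 43.8% lay above 0 in that order, with a median of -0.04 in each. The log2 fold change in all 11 libraries ran from -0.30 for ASPM to 0.51 for CDC20, and 41 of 44 genes lay within 0.25 of 0. The 95% intervals of all 44 lay inside a 2-fold change in either direction: the lowest bound was -0.88 (PTTG1) and the highest 0.84 (CDC20). All 44 genes were well counted, with 428 to 19774 reads per library, and standard errors ran from 0.13 to 0.34 on the log2 scale (median 0.17). With library sizes alone as the scaling, 41 of 44 lay above 0, and so did 58.5% of all genes, whose median moved from -0.04 to 0.06.

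**Figure D1:**
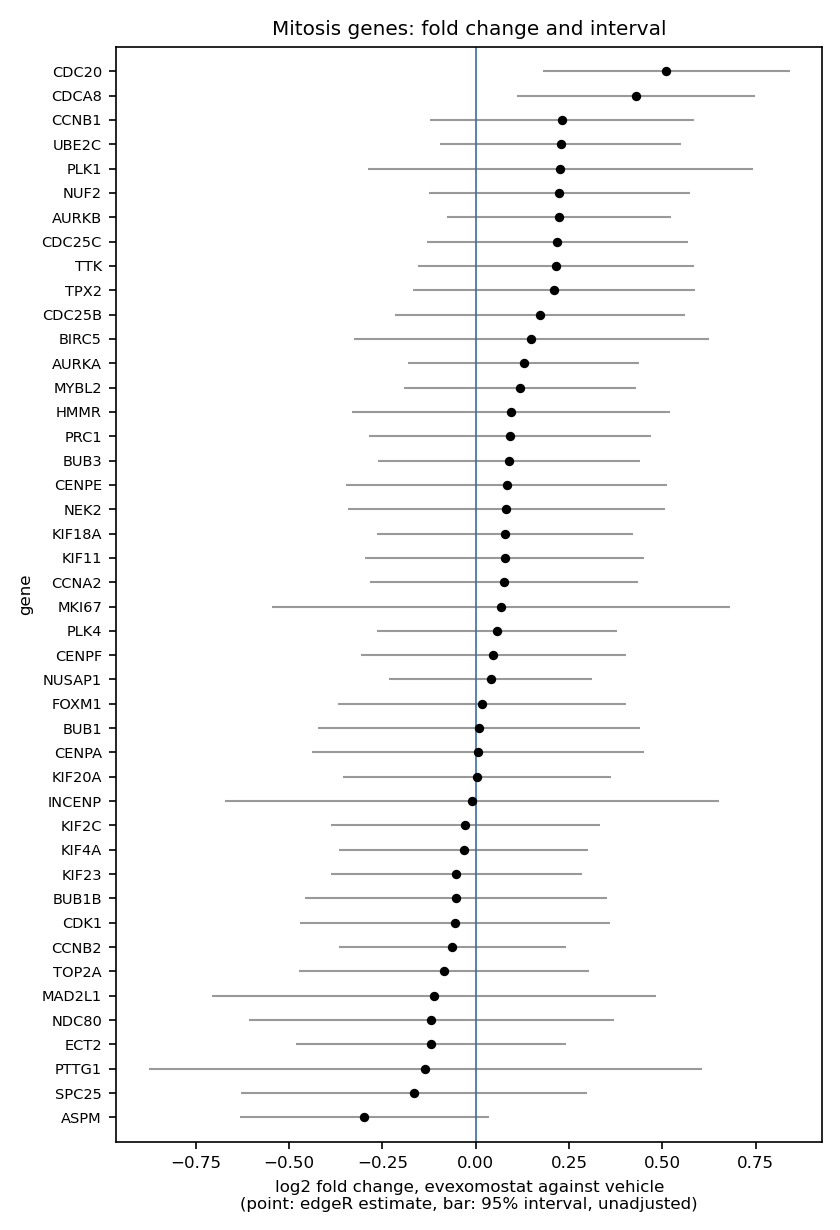
Log2 fold change of evexomostat over vehicle for each of the 44 mitosis genes (x axis), with the edgeR estimate as a point and its unadjusted 95% interval as a bar. Only the intervals of CDC20 and CDCA8 leave out 0, and neither gene passed the adjusted threshold.

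CDC20, the activator of the APC/C that starts anaphase, had the smallest p of the 44. Its level in vehicle tumours ran from 123.3 to 185.8 CPM with a median of 160.6, and in evexomostat tumours it was 245.0, 154.4, 235.1, 230.7 and 268.6 CPM (libraries 002, 003, 004, 005 and 007, the order used throughout). Thus 4 of 5 evexomostat tumours lay above every vehicle tumour, while evexomostat 003 lay inside the vehicle range. The means were 159.2 ± 20.9 (SD, n = 6) and 226.8 ± 43.1 CPM (SD, n = 5). On the log2 scale the fold change was 0.51 (SE 0.15, 95% interval 0.18 to 0.84), with an adjusted p of 0.159 in edgeR. In the authors' deposited table the log2 fold change was 0.60 with an adjusted p of 0.0640. With library sizes only as the scaling it was also 0.60 here (adjusted p = 0.0926 in edgeR).

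The other anaphase regulators did not share one pattern. UBE2C, the ubiquitin-conjugating enzyme that works with the APC/C, had a log2 fold change of 0.23 and was above the vehicle median in 5 of 5 evexomostat tumours. PTTG1 (securin), the inhibitor of separase that the APC/C removes, had -0.13 (SE 0.34, adjusted p = 0.915 in edgeR). Its vehicle tumours lay between 66.6 and 86.0 CPM, apart from vehicle 001 at 283.2, and the evexomostat tumours lay between 94.9 and 111.6. Without vehicle 001 the groups were therefore separate, and the log2 fold change turned to 0.41 with an adjusted p of 0.0287 in edgeR. In that fit PTTG1 was the only member called (2.27%), against 5.22% of all tested genes. PTTG1 was singled out after its values were seen, and near-identical copies of it in the genome make its count uncertain.

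In the chromosomal passenger complex, which corrects faulty attachments of chromosomes to the spindle, CDCA8 (borealin) had the smallest p. Vehicle tumours ran from 46.3 to 69.3 CPM with a median of 58.7, and the evexomostat tumours had 87.2, 55.2, 79.5, 82.2 and 84.7 CPM. As for CDC20, 4 of 5 lay above every vehicle tumour and evexomostat 003 did not. The means were 57.7 ± 8.84 (SD, n = 6) and 77.8 ± 12.9 CPM (SD, n = 5). The log2 fold change stood at 0.43 (SE 0.15, 95% interval 0.11 to 0.75, adjusted p = 0.220 in edgeR). The kinase of the complex, AURKB, had a log2 fold change of 0.22, the inhibitor of apoptosis BIRC5 (survivin) 0.15 and the scaffold INCENP -0.01. INCENP was also the most scattered of the 4, from 67.7 to 260.7 CPM in vehicle tumours and from 107.4 to 246.8 CPM in evexomostat tumours.

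**Figure D2:**
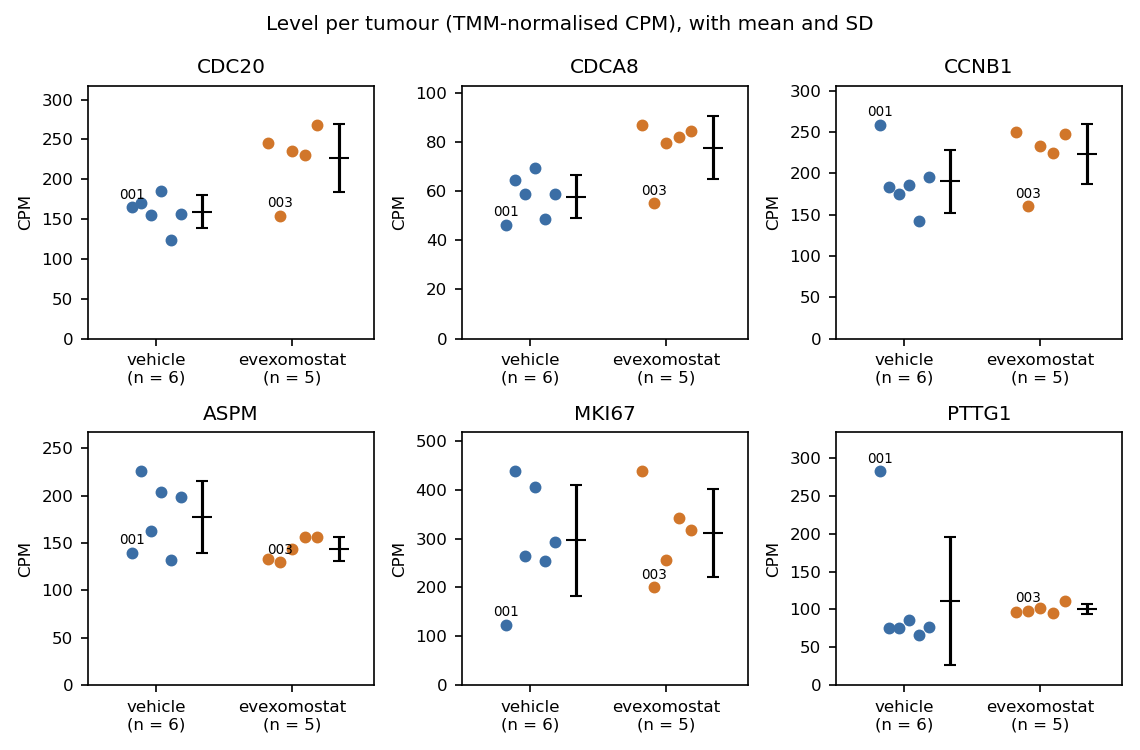
Level in every tumour in TMM-normalised CPM (y axis, from 0) of CDC20, CDCA8, CCNB1, ASPM, MKI67 and PTTG1, with the group mean and SD as bars beside the points. Numbers mark vehicle 001 and evexomostat 003; for CDC20 and CDCA8 the other 4 evexomostat tumours lie above all 6 vehicle tumours, and for PTTG1 vehicle 001 lies alone at 283.2 CPM.

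Among the cyclins, CDK1 and the CDC25 phosphatases that release CDK1 from inhibition, 4 of 6 had a log2 fold change above 0, with a median of 0.12. CCNB1 (cyclin B1) ran from 142.1 to 259.1 CPM in vehicle tumours with a median of 185.0, and had 250.3, 160.5, 233.6, 224.1 and 247.3 CPM in evexomostat tumours. The highest vehicle value was that of vehicle 001 and the lowest evexomostat value that of evexomostat 003, so the groups overlapped through these libraries. The log2 fold change was 0.23 (SE 0.16, adjusted p = 0.610 in edgeR), and 0.34 without vehicle 001. CDK1 itself ran from 109.6 to 239.1 CPM in vehicle tumours with a median of 125.4, and had 146.9, 118.3, 141.8, 144.6 and 128.2 CPM in evexomostat tumours. Its log2 fold change was -0.06 (SE 0.19, adjusted p = 0.941 in edgeR), and 0.16 without vehicle 001, which held the highest value. CDC25B, the phosphatase that acts first at the centrosome, stood at 0.17, CDC25C at 0.22, CCNA2 (cyclin A2) at 0.08 and CCNB2 at -0.06 on the log2 fold change scale.

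The transcription factors of the programme hardly differed. MYBL2 ran from 80.3 to 118.5 CPM in vehicle tumours with a median of 89.5, and had 112.0, 74.7, 103.9, 97.1 and 117.6 CPM in evexomostat tumours. All 5 evexomostat values lay below the highest vehicle value, and the log2 fold change was 0.12 (SE 0.14, adjusted p = 0.791 in edgeR). FOXM1, which follows B-Myb onto the same promoters, had a log2 fold change of 0.02 with a 95% interval of -0.37 to 0.40.

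All 4 mitotic kinases had a log2 fold change above 0, from 0.06 to 0.23. PLK1, which drives mitotic entry and spindle assembly, ran from 52.6 to 129.3 CPM in vehicle tumours with a median of 104.5, and had 126.7, 64.1, 127.5, 115.4 and 136.7 CPM in evexomostat tumours. The lowest value of each group was that of vehicle 001 and evexomostat 003, and the log2 fold change was 0.23 with a wide error (SE 0.24, adjusted p = 0.754 in edgeR). It was 0.10 without vehicle 001 and 0.38 without evexomostat 003. AURKA, the kinase of the spindle poles, ran from 86.8 to 130.5 CPM in vehicle tumours with a median of 111.8. In evexomostat tumours it had 140.8, 91.5, 125.9, 124.2 and 125.3 CPM, and the log2 fold change was 0.13 (SE 0.14, adjusted p = 0.771 in edgeR). Again 1 of 5 evexomostat tumours, evexomostat 003, was below the vehicle median. PLK4, which licenses centriole copying, had 0.06 and NEK2, which parts the centrosomes, 0.08.

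The spindle checkpoint delays anaphase until every kinetochore is attached, and its 5 genes had a median log2 fold change of 0.01. TTK (the kinase MPS1) had the smallest p of them. It ran from 42.2 to 76.5 CPM in vehicle tumours with a median of 67.0, and had 85.4, 56.3, 73.2, 73.5 and 75.5 CPM in evexomostat tumours, so that 1 evexomostat tumour exceeded all vehicle tumours. The log2 fold change was 0.21 (SE 0.17, adjusted p = 0.657 in edgeR). BUB1 stood at 0.01, BUB1B at -0.05, BUB3 at 0.09 and MAD2L1 at -0.11. MAD2L1, which inhibits CDC20 while the checkpoint is on, had 118.2 CPM in vehicle 001 and 38.9 to 45.9 in the other 5 vehicle tumours.

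Of the 6 kinetochore and centromere genes, 4 had a log2 fold change above 0. NUF2, a subunit of the NDC80 complex that grips microtubules, ran from 28.5 to 55.7 CPM in vehicle tumours with a median of 34.7, and had 47.0, 42.4, 40.8, 45.1 and 42.5 CPM in evexomostat tumours. All 5 evexomostat tumours were above every vehicle tumour but vehicle 001, which had the highest value. The share of all tested genes with this pattern was not counted. For NUF2 the log2 fold change was 0.22 (SE 0.16, adjusted p = 0.616 in edgeR), and 0.38 without vehicle 001. The partners of NUF2 in the same complex, NDC80 and SPC25, had -0.12 and -0.16, the centromeric histone CENPA 0.01, the motor CENPE 0.08 and CENPF 0.05.

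Kinesins, the motors of the spindle, lay close to 0: 3 of 6 lay above it and all lay between -0.05 and 0.08 on the log2 fold change scale. KIF18A, which damps chromosome movement at the spindle centre, had the smallest p. It ran from 15.8 to 27.7 CPM in vehicle tumours with a median of 20.7, and had 27.4, 19.0, 22.3, 22.7 and 23.2 CPM in evexomostat tumours, all within the vehicle range. Its log2 fold change was 0.08 (SE 0.16, adjusted p = 0.892 in edgeR), and ran from 0.00177 without vehicle 006 to 0.17 without vehicle 001. KIF11 (the motor Eg5, which pushes the spindle poles apart) had 0.08, KIF2C -0.03, KIF4A -0.03, KIF20A 0.00 and KIF23 -0.05.

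ASPM, a protein of the spindle poles, had the lowest log2 fold change of the 44. It ran from 132.0 to 226.0 CPM in vehicle tumours with a median of 180.6, and had 133.1, 130.0, 143.9, 156.8 and 156.6 CPM in evexomostat tumours. None of the 5 evexomostat tumours reached the vehicle median, though 4 of them lay within the vehicle range. The means were 177.2 ± 37.9 (SD, n = 6) and 144.1 ± 12.6 CPM (SD, n = 5). That is a log2 fold change of -0.30 (SE 0.16, 95% interval -0.63 to 0.04, adjusted p = 0.436 in edgeR). The other spindle assembly genes were TPX2, the activator of AURKA, at 0.21, HMMR at 0.09 and NUSAP1 at 0.04. In cytokinesis, ECT2, the exchange factor that sets the cleavage furrow, ran from 84.2 to 145.5 CPM in vehicle tumours with a median of 108.9. It had 119.0, 68.3, 105.7, 108.0 and 107.6 CPM in evexomostat tumours, a log2 fold change of -0.12 (SE 0.17, adjusted p = 0.827 in edgeR). The lowest value of all 11 was again that of evexomostat 003. PRC1, which bundles the microtubules of the midzone, stood at 0.09.

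The 2 genes most used as proliferation markers did not differ beyond their spread. MKI67, which coats mitotic chromosomes, ran from 123.7 to 438.0 CPM in vehicle tumours with a median of 278.6, and had 438.5, 199.9, 256.4, 341.4 and 317.1 CPM in evexomostat tumours. The lowest of all 11 values was that of vehicle 001, the groups overlapped widely, and the log2 fold change was 0.07 (SE 0.28, 95% interval -0.55 to 0.68, adjusted p = 0.955 in edgeR). It was -0.09 without vehicle 001. TOP2A, the topoisomerase that untangles sister chromosomes, ran from 187.6 to 409.6 CPM in vehicle tumours with a median of 237.6, and had 256.3, 235.2, 241.2, 245.1 and 241.3 CPM in evexomostat tumours. Its evexomostat values were close together, and the log2 fold change was -0.08 (SE 0.18, adjusted p = 0.898 in edgeR), or 0.10 without vehicle 001.

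Within each group the mitosis genes differed between tumours in a shared way. Within the evexomostat group, evexomostat 003 had the lowest CPM in 36 of 44 genes (81.8%), against 31.1% of all tested genes, and evexomostat 002 had the highest in 31 of 44 (70.5%) against 24.4%. Among vehicle tumours, vehicle 006 was lowest in 27 of 44 (61.4%) against 10.8%. With vehicle 001 left out, vehicle 006 was lowest in 37 of 44, against 19.9% of all genes. Most of the genes thus stood low together in vehicle 006 and evexomostat 003 and high together in evexomostat 002.

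**Figure D3:**
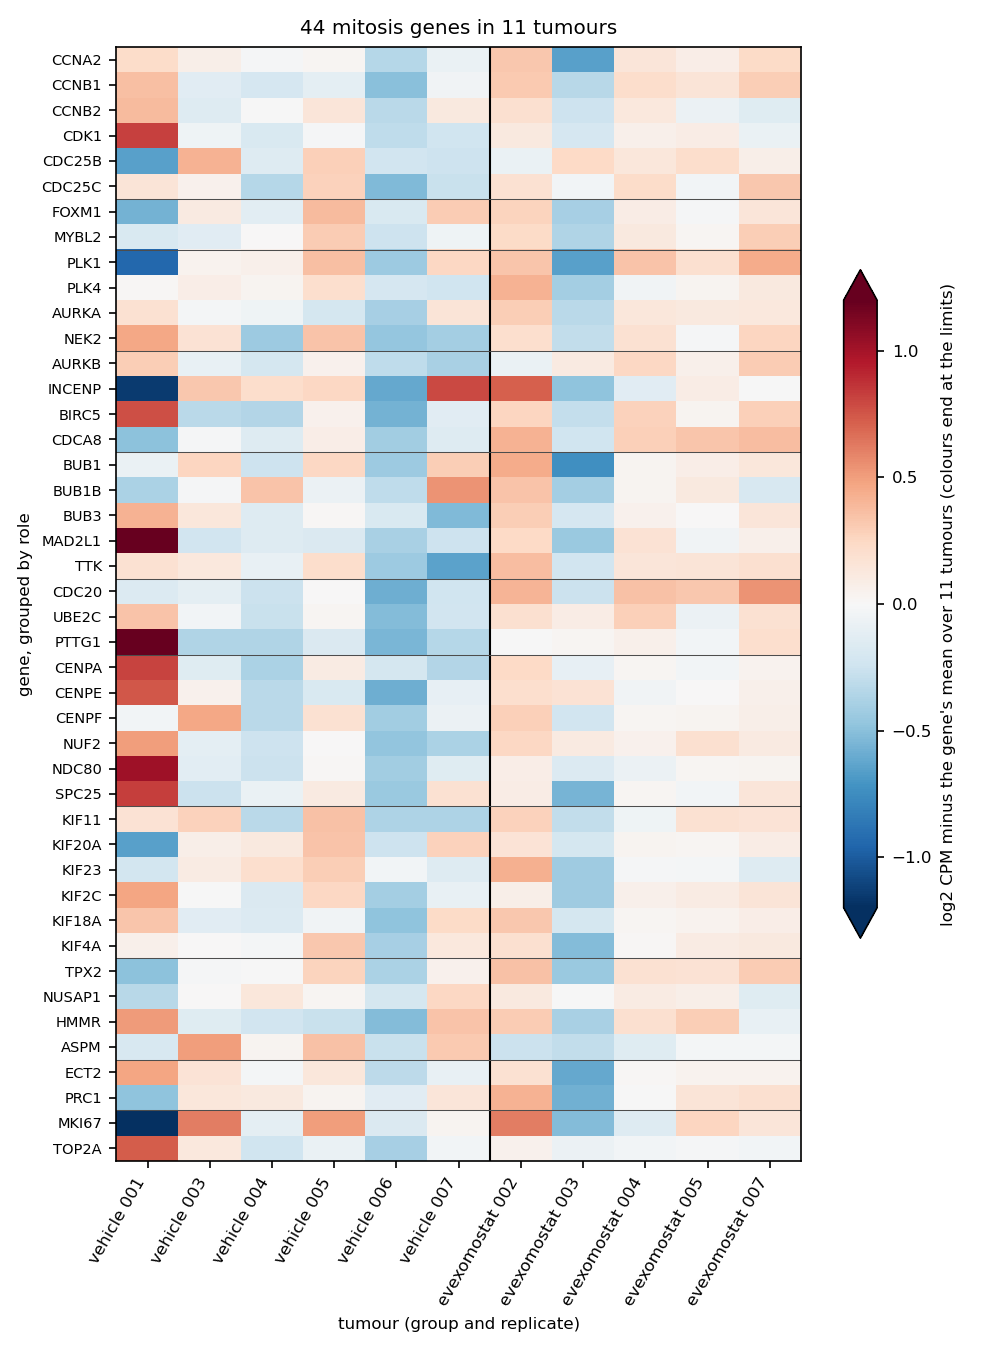
Log2 CPM of each gene (rows, grouped by role) in each tumour (columns), relative to the gene's mean over 11 tumours; red is above the mean and blue below. Vehicle 006 and evexomostat 003 are blue in most rows, evexomostat 002 is red in most, and vehicle 001 holds both the darkest red and the darkest blue.

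The median deviation of the 44 genes from their mean over all 11 tumours, in log2 CPM, was -0.40 in vehicle 006 and -0.30 in evexomostat 003. It was 0.25 in evexomostat 002, 0.18 in vehicle 001 and 0.13 in evexomostat 007. The remaining tumours lay between -0.15 (vehicle 004) and 0.11 (vehicle 005). Over all tested genes the same median lay between -0.02 and 0.02 in every tumour. Genes that were not lowest in evexomostat 003 within its group were CDC25B, which was highest there, CDC25C, AURKB, UBE2C, PTTG1, CENPE, NUF2 and NUSAP1. These 8, and all tumours named in these paragraphs, were singled out after the values were seen.

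**Figure D4:**
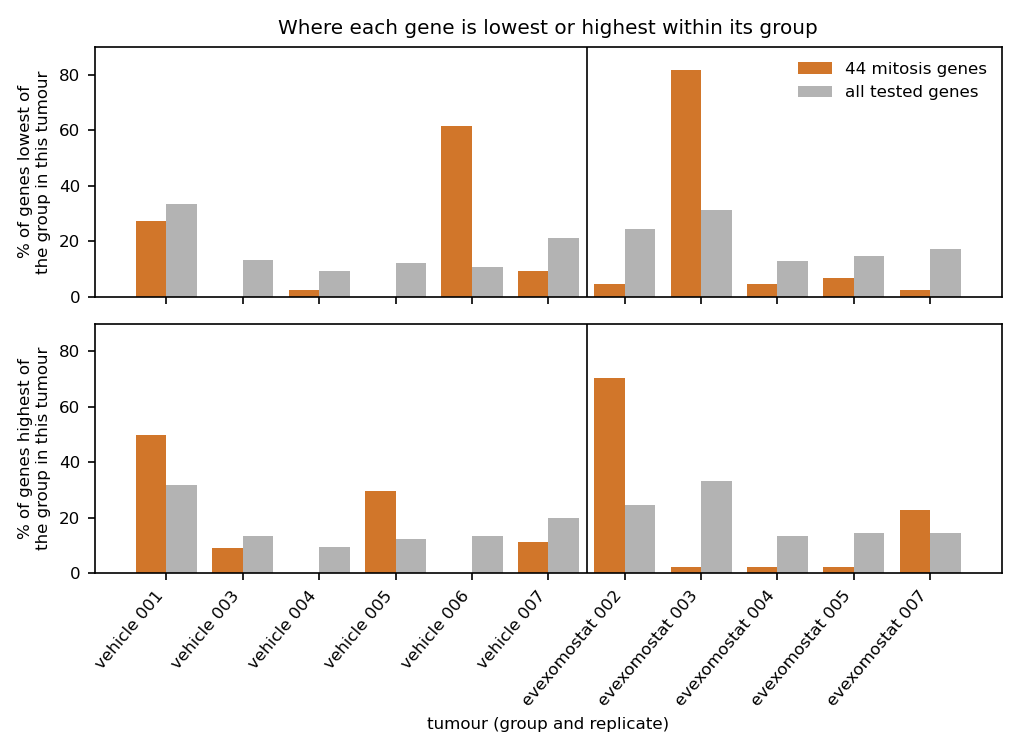
Share of genes (y axis, in percent) whose lowest (top) or highest (bottom) value within the group falls in each tumour, for the 44 mitosis genes (orange) and all tested genes (grey). Evexomostat 003 holds the lowest value in 81.8% of mitosis genes and vehicle 006 in 61.4%, and evexomostat 002 the highest in 70.5%.

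Vehicle 001 stood apart in another way, with some mitosis genes far above and others far below the rest of its group. It was the highest of the vehicle tumours in 22 of 44 genes (50.0%, against 31.7% of all tested genes) and the lowest in 12 (27.3%, against 33.4%). Against the mean of the other 5 vehicle tumours, PTTG1 was 3.72 times as high, MAD2L1 2.74, NDC80 2.30, BIRC5 2.04 and CENPA 2.00 times. MKI67 was at 0.374, INCENP at 0.376 and PLK1 at 0.494 of that mean. NDC80, NUF2 and SPC25, subunits of 1 complex, were each highest of the group there. In the passenger complex BIRC5 and AURKB (1.39 times the mean) were highest of the group, and INCENP and CDCA8 lowest.

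This split moved with transcript length and base composition. The 22 shorter transcripts (below a median of 2924 nt) had a median log2 ratio of vehicle 001 to the other vehicle tumours of 0.54, and the 22 longer ones -0.09. Across the 44 genes the ratio had a Spearman rho of -0.38 with length and -0.38 with GC content, which describes genes of 1 library and not replicates. Over 15746 tested genes with a length the same values were -0.37 and -0.22. In evexomostat 003 the ratio to the other 4 evexomostat tumours had a rho of -0.24 with length over the 44 genes and -0.20 over all genes. As normalised, vehicle 001 lay above the range of the other 5 vehicle tumours in 22 genes, below it in 12 and within it in 10. With a length and GC trend removed from each library it lay above in 13, below in 7 and within in 24. MKI67, at 290.6 CPM, then lay within their range, and PTTG1 came nearer, at 133.5 CPM against 67.4 to 101.1. Other genes moved further out: BIRC5 stood at 198.9 CPM against 49.5 to 78.4, KIF2C at 315.9 against 107.3 to 175.9 and MYBL2 at 166.5 against 75.5 to 104.4. CDC25B and FOXM1 went from lowest to highest of the group, at 523.9 and 271.1 CPM. CDK1, BUB3, UBE2C, NUF2 and SPC25 went the other way, from highest to lowest of the group. CDK1 then stood at 96.6 CPM against 107.4 to 168.4, NUF2 at 26.95 against 27.35 to 47.61 and SPC25 at 16.4 against 18.5 to 37.2. MAD2L1 (125.3 CPM) and TOP2A (436.3 CPM) were highest both before and after. The part of RNA quality in these values was not tested.

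**Figure D5:**
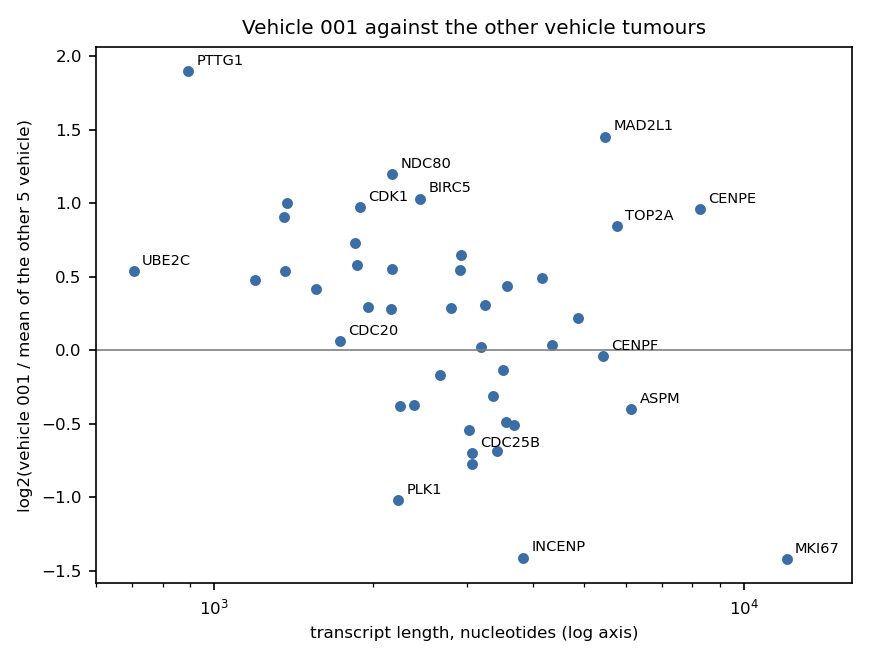
Log2 ratio of vehicle 001 to the mean of the other 5 vehicle tumours (y axis) against transcript length in nucleotides (x axis, log scale), 1 point per mitosis gene. Short PTTG1 lies at the top left and long MKI67 at the bottom right, while the long transcripts of MAD2L1, CENPE and TOP2A lie above 0.

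Calls differed between the fits that weighted or left out libraries. With limma-voom and sample quality weights, which ran from 0.115 for vehicle 001, 0.507 for vehicle 007 and 0.570 for evexomostat 003 up to 2.80 for evexomostat 004, 3 of 44 genes passed (6.82%), a share near the 6.36% of all tested genes. Without the weights limma-voom called none of the 44, with 0.49 (adjusted p = 0.199) for CDC20. The 3 genes called with weights were CDC20 (log2 fold change 0.60, adjusted p = 0.0162), CDCA8 (0.44, adjusted p = 0.0326) and CCNB1 (0.40, adjusted p = 0.0479). Without evexomostat 003 alone edgeR called 0 of 44, and the share of all tested genes called in that fit was not counted. With vehicle 001 and evexomostat 003 both left out, a choice made after seeing the data, edgeR called 4 of 44 (9.09%) against 3.9% of all tested genes. CDC20 had 0.63 (adjusted p = 0.0209), CDCA8 0.47 (adjusted p = 0.0356), CCNB1 0.43 (adjusted p = 0.0423) and PTTG1 0.41 (adjusted p = 0.0387). The groups were then separate for 7 of 44 (15.9%), CCNA2, CCNB1, CDCA8, MAD2L1, CDC20, PTTG1 and NUF2, all higher under evexomostat, against 11.4% of all tested genes in either direction. Evexomostat 003 was left out because it stood low for these same genes, so the 4 calls, their adjusted p-values and the count of separate groups are a description. In the 8 libraries whose replicate numbers occur in both groups, the groups were separate for 5 of 44 (11.4%), against 17.2% of all tested genes.

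Compared per kilobase of transcript, mean levels over the 11 tumours spanned from 5.88 CPM per kb for CENPE to 162.6 for UBE2C. BUB3 (153.7), CDC25B (127.1), PTTG1 (118.6), CDC20 (110.0) and CCNB1 (94.6) followed UBE2C. KIF18A (6.24), PLK4 (9.08), MAD2L1 (9.84) and CDC25C (10.8) were lowest after CENPE. The mean of PTTG1 includes the 283.2 CPM of vehicle 001.

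Further genes of the same machinery were read by list. Of 112 genes in 5 further lists, 111 were tested, 63 had a log2 fold change above 0 and 48 below, 0 passed edgeR's adjusted threshold and 7 (6.31%, against 13.4% of all tested genes) had an unadjusted p under 0.05, with a median of 0.04. Without vehicle 001, 80 lay above 0 and 31 below, 4 passed and the median was 0.10. Over all tested genes in that fit, 49.6% lay above 0, 5.22% passed and the median was -0.00245. Subunits and adaptors of the APC/C, on which CDC20 acts, lay above 0 in 6 of 16 genes, condensin and cohesin in 11 of 20, other kinetochore genes in 14 of 29 and other G2/M regulators in 13 of 22. Other spindle, kinesin and cytokinesis genes lay above 0 in 19 of 24 (79.2%, against 44.6% of all tested genes), with 4 under an unadjusted p of 0.05 (16.7%, near the 13.4% of all tested genes). The smallest p-values of these lists belonged to LMNB1 (a lamin of the nuclear envelope, log2 fold change 0.41, adjusted p = 0.197 in edgeR), TROAP (0.43, adjusted p = 0.199) and ZWINT (a kinetochore protein, 0.35, adjusted p = 0.209). ZWINT, named for the smallest p of its list, had 128.6 CPM in evexomostat 003 and 128.1 to 144.6 CPM in the other evexomostat tumours. Its vehicle tumours had 89.3 to 125.0 CPM, so its groups did not overlap, evexomostat 003 included. Groups were separate for 2.97% of all tested genes, and how many genes of these lists were separate was not counted.

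Genes that control the programme or oppose it came next. Of the MuvB, DREAM and B-Myb partner subunits, 5 of 12 lay above 0 and 0 passed; LIN9, a MuvB subunit, had the smallest p with -0.40 (adjusted p = 0.287 in edgeR). Cell cycle inhibitors and quiescence genes lay below 0 in 11 of 12 (91.7%, against 55.4% of all tested genes), with a median of -0.30 against -0.04. Vehicle 001 stood apart here, with a summed level of 1140 RPM and 799.6 RPM in the next highest library. Without vehicle 001, 9 of 12 lay below 0 with a median of -0.22, against 50.4% of all tested genes with a median of -0.00245. In that fit 0 of 12 passed and 3 had an unadjusted p under 0.05, against 5.22% and 24.4% of all tested genes. In all 11 libraries 0 passed and 2 had an unadjusted p under 0.05 (16.7%, against 13.4%). There TOB1, an antiproliferative gene, had -0.41 (adjusted p = 0.252 in edgeR). DNA replication genes, which act before mitosis, lay above 0 in 17 of 26 (65.4%, against 44.6% of all tested genes) with a median of 0.02. Without vehicle 001 they did so in 22 of 26 with a median of 0.16, against 49.6% of all tested genes. The helicase subunit MCM5 had 0.25 in all 11 libraries (adjusted p = 0.433 in edgeR).

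The 11 libraries held 22808033 to 39249329 assigned reads. Vehicle 001 had the lowest TMM factor (0.860) and gave 23.9% of its reads to the top 100 genes, a share of 16.2% to 17.9% in the others. The label was checked against luminal and receptor genes in the deposited RPM (reads per library total, unscaled): KRT8 averaged 331.6 and ERBB2 53.7, while GRB7, the neighbour of ERBB2 that is often amplified with it, averaged 0.303, ESR1 0.285, PGR 0.0655, KRT19 0.803 and CDH1 0.456. Receptor transcripts of the HR+ label were thus near 0, and GRB7, KRT19 and CDH1 were too. Whether ERBB2 is amplified in these tumours, and whether the cells are BT-474, was not tested. Skeletal muscle genes summed to 5.52 to 25.3 RPM in vehicle and 6.23 to 451.6 RPM in evexomostat tumours. The highest was evexomostat 005 and the next 55.1 RPM; the median deviation of the mitosis genes in evexomostat 005 was 0.05 on the log2 scale. Fibroblast genes summed to 390.8 to 2063 against 499.2 to 1122 RPM, endothelial genes to 8.92 to 23.2 against 10.04 to 14.8, macrophage and leukocyte genes to 60.1 to 94.2 against 67.8 to 83.7, and adipocyte genes to 0.345 to 1.90 against 0.315 to 2.86. CD3E and ADIPOQ were at 0 in every library. The part of these other cells in the mitosis values was not tested.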

How the data were processed

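RNA of 11 tumours was sequenced as paired reads, with a NEBNext Ultra RNA library kit per the labels' protocols. The submitters' processing notes name bcl2fastq 2.17, STAR 2.7.5c, Subread featureCounts, edgeR and the build GRCh37/hg19; how strand and mouse reads were treated, and which annotation was used, is not given in the sources used here. The authors deposited raw read counts per gene symbol, the same counts as RPM (count over library total), and a table of log2 fold changes, p-values and adjusted p-values. The settings of that table are not stated, but its log2 fold changes for the mitosis genes given in full lay close to those fitted here with library sizes only.

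Counts were fitted with edgeR 4.0.16 (TMM, filterByExpr with a minimum count of 10, quasi-likelihood F-test, Benjamini-Hochberg adjustment over all 16653 tested genes, threshold 0.05) on the 11 libraries without covariates. Intervals cover counting error and the spread between libraries. Alternatives were relative log expression factors, library sizes only, DESeq2 1.42.0, limma 3.58.1 voom with and without quality weights, no count filter, a length and GC trend removed per library (splines with 5 degrees of freedom), the replicate number as a block in 8 libraries, and each library left out. Length and GC were medians over a gene's basic coding transcripts in GENCODE 29, a definition that replaced the longest transcript after values had been seen; both were run. In counts simulated for this comparison over 16475 genes, edgeR recovered 49.5% of genes changed by 1 on the log2 scale. It recovered 91.7% of those changed by 2, and 5.52% of its calls were false. Smaller changes were not scored, and the estimates of the mitosis genes ran only from -0.30 to 0.51. The simulation therefore cannot show how often changes of that size would be found. Whether its shares hold with libraries that stand apart, such as vehicle 001 and evexomostat 003, was not tested.

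Full values are given for members past the threshold or with separate groups, for the member with the smallest p in each role, and for MKI67, TOP2A, CCNB1, CDK1, PLK1 and AURKA. The members, roles, lists and rule were chosen with earlier results of these data known. Promoters are RefSeq's for GRCh38.p14, matched by symbol, and no coordinates were converted.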

Additional observations from a re-analysis of the deposited data

Results flagged for a closer look

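The highest or lowest tumour of each group was compared with its neighbour for the 44 mitosis genes, in 88 groups of 5 or 6 tumours. The gap exceeded Dixon's 95% limit in 12 groups. A rate of 1 in 20 would give 4.4 if the groups were independent. They share the same 11 libraries and are not, so the number is a description. The same count over all tested genes was not made. All 12 lay in vehicle 001 (8) or evexomostat 003 (4).

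In vehicle 001 the values stood above those of the other 5 vehicle tumours. PTTG1 had 283.2 CPM there, MAD2L1 118.2, CDK1 239.1, NDC80 80.87, CENPA 37.67, BIRC5 137.2, CENPE 79.41 and TOP2A 409.6 CPM. The nearest other vehicle tumour had 86.0 CPM for PTTG1, 45.9 for MAD2L1 and 134.1 for CDK1. With the length and GC trend removed, CDK1 in vehicle 001 lay below the other 5 vehicle tumours and CENPA within their range. The rest still lay above them.

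In evexomostat 003 the values stood below those of the other 4 evexomostat tumours. KIF2C had 116.4 CPM there, CDCA8 55.21, ECT2 68.29 and TPX2 190.7 CPM. The nearest other evexomostat tumour had 163.1 CPM for KIF2C, 79.5 for CDCA8, 105.7 for ECT2 and 292.9 for TPX2.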

How the results depend on the processing

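CDC20, CDCA8, CCNB1, AURKA, TTK, NUF2, KIF18A and ASPM kept the sign of their log2 fold change in all 22 alternatives. Values that turned sign are given by setting. With library sizes only, CDK1 was 0.06045, TOP2A 0.03153 and PTTG1 0.01244. With voom quality weights, 3 genes passed the threshold, and CDK1 was 0.1515, ECT2 0.01971, MKI67 -0.03643, TOP2A 0.09897 and PTTG1 0.3751. Without quality weights, an alternative added after seeing the data, voom passed 0 genes and PTTG1 was 0.08816. With length and GC correction, CDK1 was 0.1033, TOP2A 0.01821 and PTTG1 0.04793, and 38 of 44 lay above 0. With the longest transcript, also added then, CDK1 was 0.1049, TOP2A 0.01994 and PTTG1 0.06351, and 35 lay above 0. With the replicate block on 8 libraries, CDK1 was 0.08503, MYBL2 -0.01806, PLK1 -0.1019, MKI67 -0.3299, TOP2A 0.01245 and PTTG1 0.365, with 0 past the threshold. In the same 8 libraries with no replicate block, 5 genes (11.4%) had separate groups (AURKB, PTTG1 and NUF2 higher, INCENP and ASPM lower), against 17.2% of all tested genes, and CDK1 was 0.0866, MYBL2 -0.008553, PLK1 -0.05163, MKI67 -0.3357, TOP2A 0.006887 and PTTG1 0.3656. Deviations of the tumours numbered 003, 004, 005 and 007 correlated across genes at -0.27, 0.07, 0.05 and -0.10 between the groups. These values cannot show whether the numbers pair tumours. In the 8 libraries 23 of 44 genes lay above 0 with the block and 22 without it. The medians were 0.00543 and -0.00341, so they were alike with and without the block. With vehicle 001 and evexomostat 003 left out together, also added after seeing the data, 4 genes passed and 7 were separate, and CDK1 was 0.1986, ECT2 0.08229, TOP2A 0.102 and PTTG1 0.4056. With 1 library left out at a time, 0 to 1 genes passed and 0 to 2 were separate. The ranges were -0.1192 to 0.1631 for CDK1, -0.08954 to 0.212 for MKI67, -0.1611 to 0.1 for TOP2A and -0.2449 to 0.409 for PTTG1. The single call was made without vehicle 001, where 5.22% of all tested genes were called. The share of all tested genes called was not counted for the other fits of this kind or for the replicate block. For separate groups it was not counted in any fit that left out 1 library. The count above 0 ranged from 22 (without evexomostat 002, and in the 8 libraries with no block) to 41 (library sizes only). The median log2 fold change ran from -0.00449 to 0.19, moving by at most 0.123 from its value in all 11 libraries; the SD between single tumours' medians was 0.206, and 0.156 without vehicle 001 and evexomostat 003. The cause of these changes was not tested.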
